A study of Rattus norvegicus with 16 samples.

Results

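The cells described here are the disc class of the intervertebral disc (IVD) 8 weeks after surgery. The authors' final cell-type label calls them chondrocytes, and the study calls the class intervertebral disc cells. Cells labelled macrophages are called myeloid here, and those labelled immune cells are called lymphoid, after the class names of the study. The disc class held 47395 of the 55347 cells of the 8-week libraries, in a series of 149272 cells. The animals were male Sprague-Dawley rats, 8 weeks old at surgery. In the LDP group (lumbar disc puncture) the L4-5 and L5-6 discs had each been stabbed once with a needle from one side, and in the CON group the L2-3 and L3-4 discs of the same animals were left unpunctured. Rats 5 to 8 each gave 1 CON and 1 LDP library, in which the 2 discs of that kind were pooled, digested with pronase and collagenase, and sequenced from the 3′ end of the RNA in single cells (10x Genomics). Controls and punctured discs therefore shared the animal, its operation and its recovery, but puncture and spinal level cannot be told apart in any comparison of LDP with CON. The authors clustered CON and LDP cells apart before naming the classes, so a shift in the boundary of the class and a shift within it cannot be told apart either.

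An intervertebral disc is built from a gelatinous core, the nucleus pulposus, and a lamellar ring, the annulus fibrosus, between cartilage endplates. Its cells secrete and turn over the matrix: type II collagen and aggrecan give the core and inner ring the character of cartilage and hold water, whereas type I collagen and small leucine-rich proteoglycans give the outer ring its tensile fibers. The transcription factor Sox9 drives the cartilage genes, while the outer ring shares genes with tendon and ligament.

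The disc class of the CON libraries of rats 5 to 8 held 6593, 5445, 4540 and 6079 cells, and that of the LDP libraries 6100, 1313, 8728 and 8597 cells. Disc cells were 80.6%, 70.3%, 96.7% and 94.3% of all cells of the CON libraries and 88.7%, 59.1%, 86.1% and 95% of the LDP libraries. The groups overlapped, and the difference of −3.25 percentage points lay within the spread between libraries (exact two-sided permutation test of the 8 libraries, 70 arrangements, p = 0.714). The remaining cells were 3725 lymphoid, 578 myeloid and 662 endothelial cells and 2987 cells without a class name, and an endothelial class was named in LDP libraries only. A disc cell had a median of 5162 to 7667 unique molecular identifiers (UMIs, each standing for 1 captured RNA molecule) in CON and of 6427 to 9889 in LDP. Any pair of 8-week libraries shared between 0 and 27 cell barcodes. The LDP library of rat 5 stood apart by its ribosomal share (a median of 17.9%, against 13.2% to 15.4% in the other libraries) and by the lowest Col1a1 and Col2a1 levels of the 8.

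The defining genes of the class were checked first. Levels are given as CPM, the UMIs of a gene scaled to a fixed total of UMIs per cell, averaged over the disc cells of a library. Acan, the core protein of aggrecan, ran from 1705 to 2142 CPM in CON and from 1953 to 2898 in LDP disc cells. Its highest value in any of the 18 other classes counted (endothelial, myeloid or lymphoid cells of a library with at least 20 of them) was 344 CPM. Col2a1, the chain of type II collagen, was at 2962, 1580, 2086 and 2964 CPM in CON rats 5 to 8 and at 602, 1216, 2138 and 2435 in LDP, with at most 358 CPM in another class. Sox9 (549 to 1019 CPM), the collagen-binding proteoglycan Fmod (1086 to 2146) and the matrix protein Comp (3667 to 5521) were likewise over 2-fold above every other class in every library. At a fixed depth of 1000 UMIs per cell, 0.944% to 5.2% of the disc cells of a library held no UMI of these 5 genes and 5.34% to 15.9% held all 5, so that most single cells showed some markers and not others. Cells without a class name held 9.48 to 248 CPM of Col2a1 and 5.92 to 230 CPM of Acan, within the range of the named classes other than disc.

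Genes that set disc cells apart were then ranked by their lowest log2 ratio over the other classes counted in the same library. Endothelial cells were among these in LDP libraries only, CON rat 8 had myeloid cells alone, and cells without a class name were left out. As the classes had been drawn from these values, the ranking is a description with no test. Of 2427 genes at 50 CPM or more, 226 were over 2-fold above every other class in every library (9.31%) and 546 were above them at all (22.5%). All 11 cartilage matrix genes at that level (11 of 14 in the list) passed the 2-fold limit, as did 7 of 8 fibrous matrix genes, 5 of 7 small leucine-rich proteoglycans, 5 of 8 genes of the surface program and 3 of 5 matrix proteases and inhibitors. Of 11 immediate early genes 0 were above every class, and of 13 hypoxia and glycolysis genes 3 were, 1 of them over 2-fold.

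The 20 genes that led this ranking held 7 members of the lists and 13 others. The chemokine Cxcl14 came first, at 1307 to 1936 CPM in CON and 1443 to 2057 in LDP disc cells and at most 204 CPM elsewhere. The prohormone convertase Pcsk2 was second and far lower, at 29.9 to 99.8 CPM against at most 5.06. Scrg1, a small secreted protein named for its induction in scrapie and known from cartilage, was at 556, 521, 648 and 373 CPM in CON and 1424, 995, 970 and 653 in LDP. The calcium-binding protein S100b (431 to 682 CPM) and the annexin Anxa8 (548 to 753) varied less between libraries. Also among the 20 were the decoy receptor of RANKL, Tnfrsf11b (2238 to 3191 CPM), and the cartilage lectin Clec3a (3826 to 5851). So were the cartilage list genes Ucma (529 to 918), Snorc (3077 to 4165) and Col9a2 (207 to 269) and the tendon thrombospondin Thbs4 (106 to 235). The procollagen enhancer PCOLCE2 (569 to 1066) and the serpin family members Serpina1 (692 to 1444) and Serpinf1 (93.7 to 269) were there too. The interleukin 23 receptor Il23r (58.4 to 115 CPM) and the cytokine Il17b (34.1 to 89.4) were in the same list, as were decorin (Dcn), Susd5, Fibin and the respiratory chain component Ndufa4l2.

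**Figure D1:**
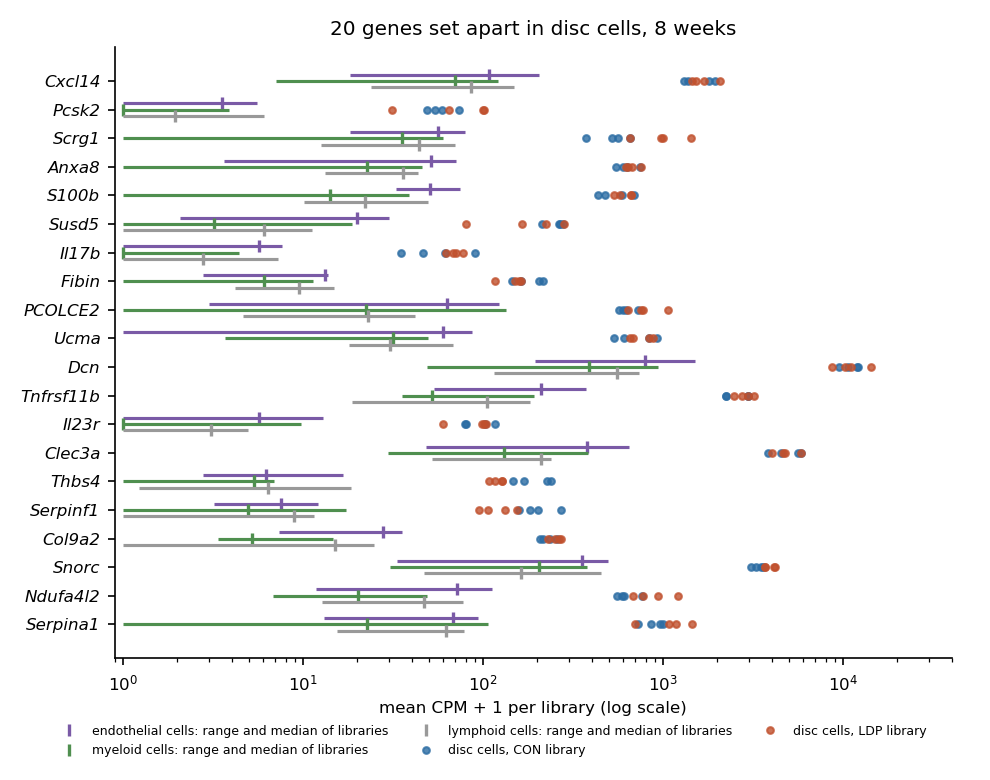
Mean CPM + 1 (log axis) of the 20 genes that led the ranking, with 1 point per library for disc cells (CON and LDP colored apart) and, for endothelial, myeloid and lymphoid cells, a line over the range of libraries with a tick at the median. All 8 disc points of each gene lie to the right of the ranges of the other classes, by a lowest log2 ratio within a library of 2.89 (Serpina1) to 3.33 (Cxcl14).

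The start sites of 2 of these genes are shown because both recur below, Scrg1 among the genes higher in LDP and Serpinf1 at the fibrous end of the class. The sequences are the 250 bases before the RefSeq gene start in the build GRCr8, read 5′ to 3′ on the strand of the gene, chr16:37799011-37799260 (minus strand) for Scrg1 and chr10:60760899-60761148 (minus strand) for Serpinf1. They are not in the build of the deposited files. Capitals mark ACAAAG, which together with ACAATG was searched on both strands as the core recognized by SOX proteins.
Scrg1: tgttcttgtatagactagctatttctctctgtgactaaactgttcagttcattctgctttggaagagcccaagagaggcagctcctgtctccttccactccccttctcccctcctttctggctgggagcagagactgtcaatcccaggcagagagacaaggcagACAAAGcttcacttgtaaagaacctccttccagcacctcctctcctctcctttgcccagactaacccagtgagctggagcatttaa
Serpinf1: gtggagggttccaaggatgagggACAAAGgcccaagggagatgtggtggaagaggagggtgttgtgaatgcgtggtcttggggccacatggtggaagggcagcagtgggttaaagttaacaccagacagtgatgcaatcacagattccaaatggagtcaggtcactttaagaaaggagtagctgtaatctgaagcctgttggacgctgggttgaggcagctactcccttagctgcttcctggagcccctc
Of the 20 leading genes 15 had such a sequence, and 5 of those 15 (33.3%) held either motif, beside 25.3% of all 33469 promoter sequences of that length. A match of letters is not a binding site, and the counts differ by few genes.

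The most abundant transcripts of the class are given as levels only. UMIs were counted at the 3′ end and not scaled by transcript length. The transcript annotated AC134224.3 took 72777 to 96139 CPM, a mean of 8.60% of all UMIs, and was not matched to a named gene here. Decorin (Dcn, a small leucine-rich proteoglycan that binds collagen) followed with 8605 to 14235 CPM, fibronectin (Fn1) with 5997 to 17796 and chondroadherin (Chad, a cartilage proteoglycan relative) with 6002 to 10048. The iron store Fth1 (5995 to 9729 CPM) and the protease inhibitor Cst3 (5720 to 8214) were also among the 10 highest, together with Tpt1, Mt-co2, Rpl41 and RGD1305645.

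Within the class, programs were read as the percentage of a cell's UMIs on the genes of a list, after each cell had been thinned to 1000 UMIs. The observed SD over the cells of a library was set beside the SD that counting alone would give at that mean share. Among the 15 programs the ratio of both was highest in most libraries for the hypertrophy and mineral list (3.54 to 6.48), the fibrous matrix list (3.43 to 5.78) and the outer annulus list (3.01 to 4.51). In LDP rat 8 immediate early genes (3.75) stood above the hypertrophy and mineral and the fibrous matrix list. In LDP rat 7 outer annulus genes (3.01) stood below small leucine-rich proteoglycans (3.29), neurotrophin and cytokine genes (3.16) and cartilage matrix (3.14). It was 2.18 to 3.66 for cartilage matrix, 2.42 to 3.85 for small leucine-rich proteoglycans, 2.11 to 3.63 for the surface program around lubricin (Prg4) and clusterin (Clu), and 2.25 to 3.75 for immediate early genes. Hypoxia and glycolysis (1.24 to 1.45), the nucleus pulposus and notochord list (1.16 to 1.44), chondrogenic transcription factors (1.14 to 1.21) and cell cycle genes (1.03 to 1.06) were nearer to counting alone. This ratio also grows with the UMIs that a list holds per cell. Lists with few UMIs, such as the transcription factors, can vary as much relative to their mean without a high ratio. It therefore does not rank lists of unlike abundance by how much they vary.

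The size of this spread is seen in the percentiles of cells. Cartilage matrix genes took a median of 1.3% to 2.00% of a cell's UMIs in CON libraries and 1.40% to 1.90% in LDP libraries. Between the 10th and the 90th percentile of cells the share ran from 0.50% to 4.50% in CON rat 5 and from 0.70% to 2.70% in LDP rat 5, the widest and the narrowest of the 8. Fibrous matrix genes, of which Dcn was the most abundant in every library, had a median of 0.90% to 1.70%. Their 90th percentile was 4.2% to 4.80% in CON and 2.40% to 4.50% in LDP. Genes of the outer annulus list (Igfbp5, Igfbp6, Lum, Myoc and Fibin) had a UMI in 19.3% to 28.3% of CON and 15.0% to 19.4% of LDP disc cells, so that most cells of every library were at 0 for this program.

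**Figure D2:**
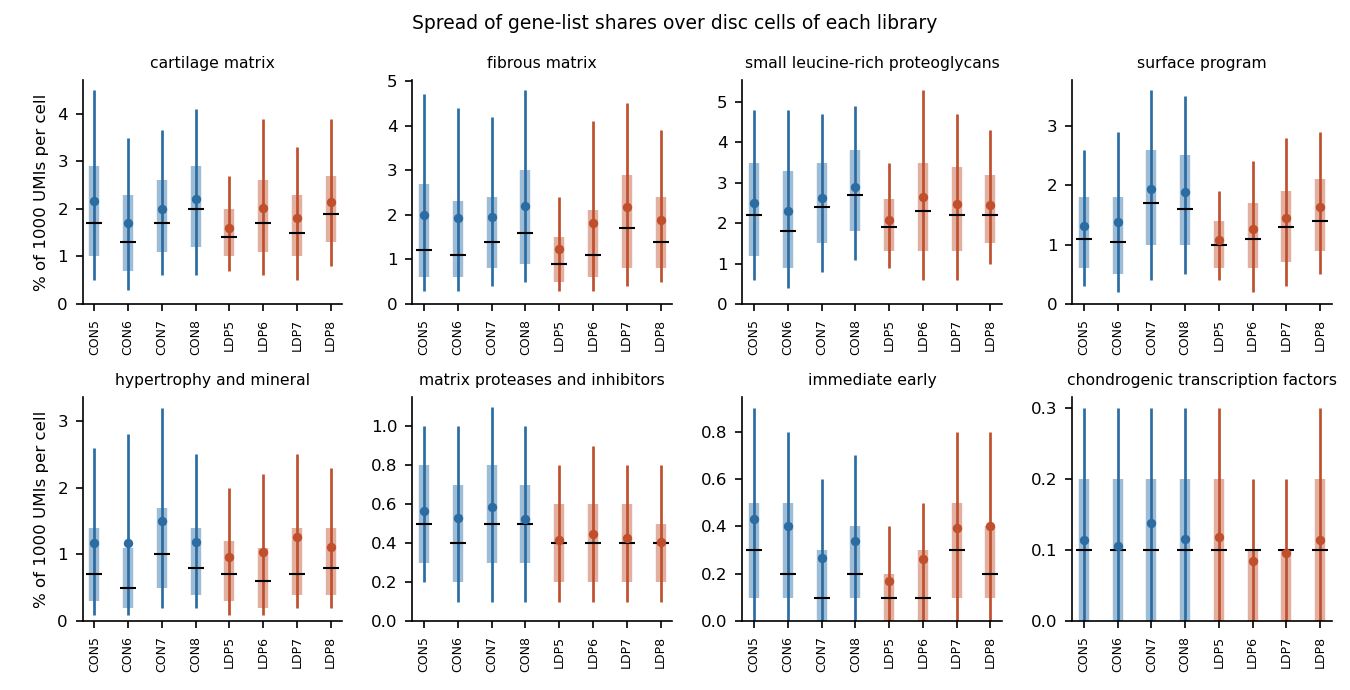
Share of a cell's 1000 UMIs on 8 gene lists (percent), over the disc cells of each library (CON5 to CON8 and LDP5 to LDP8). Thin lines run from the 10th to the 90th percentile of cells, thick bars from the 25th to the 75th, black marks are medians and points are means. Matrix lists are wide in every library. The cells' medians for chondrogenic transcription factors, a list with few UMIs per cell, sit at 0.1% in all 8.

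To place cells between the 2 matrix programs, a balance was taken as the log2 ratio of fibrous to cartilage matrix UMIs (each + 1). Fibrous UMIs outnumbered cartilage UMIs in 27.5%, 39.0%, 35.7% and 34.1% of disc cells in CON rats 5 to 8 and in 24.7%, 26.4%, 48.5% and 29.5% in LDP. LDP rat 7 was the highest and LDP rat 5 the lowest, and the groups overlapped (difference −1.78 points, exact permutation p = 0.857). Most cells lay in 1 peak around the median balance (−0.58 to 0.00), and 30.7% to 41.8% of cells lay within 5 UMIs of the boundary, so the cut marks a range and not a cell type. A small part of strongly fibrous cells lay to the right of it. Its shape differed between libraries of both groups. In CON rat 5 the share of cells per bin of 0.5 rose again from 0.79% at a balance of 2.5 to 1.46% at 3. In CON rat 7 it rose from 0.64% at 3 to 1.02% at 4, and in LDP rat 6 from 0.76% at 2.5 to 1.22% at 3. In LDP rat 8 it fell steadily from 0.82% at 2 to 0.47% at 4. Cells with a balance of 3 or more, a limit chosen after the values were seen, were 5.53%, 5.17%, 4.28% and 6.55% of disc cells in CON and 1.1%, 2.82%, 2.78% and 1.96% in LDP. Without Dcn and Chad, the most abundant gene of each list, the share of fibrous over cartilage cells was 18.4%, 16%, 13.4% and 20.1% in CON and 6.47%, 11.2%, 10.5% and 15.2% in LDP, with a difference of −6.09 points (exact permutation p = 0.0571). This setting was chosen after the values were seen. Under the others the difference was −2.59 without Col1a1 and Col2a1 (p = 0.771), −3.26 with fibrous UMIs above 2 times cartilage UMIs (p = 0.4) and −1.58 with all UMIs (p = 0.886, all exact permutation).

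Genes outside both lists followed this balance in all 8 libraries. Between the most fibrous and the most cartilaginous quartile of the cells of a library, 489 of 4421 genes at 20 CPM or more were higher at the fibrous end in 8 of 8 libraries (11.1%) and 1095 were lower (24.8%). Large differences lay on the fibrous side, where 28 genes were over 2-fold higher in all 8 libraries and 1 was over 2-fold lower. Cells had been chosen by a measured value, so no test was made.

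Of the 10 genes that led the fibrous end, 5 were members of the tendon and ligament or the outer annulus list (Myoc, Tnmd, Igfbp5, Igfbp6 and Tnc). Myocilin (Myoc), a secreted glycoprotein, was at 48.0 to 489 CPM in the fibrous quartile and at most 2.04 in the cartilage quartile, a median log2 ratio of 6.52. Tenomodulin (Tnmd), the classic membrane glycoprotein of tendon cells, followed with 30.1 to 256 CPM against at most 1.41 (median log2 ratio 5.69). The secreted phospholipase Pla2g2a (5.84), the insulin-like growth factor binding proteins Igfbp5 (6.69) and Igfbp6 (5.71), tenascin C (Tnc, 4.48), the gelatinase Mmp2 (4.02), the latent TGF-β binding protein Ltbp4 (3.85), Ecm1 (4.22) and Serpinf1 (4.36) completed the 10. Of the tendon list, Scx, the transcription factor of tendon progenitors (median log2 ratio 1.56), Thbs4 (1.81) and Kera (3.28) were also higher at this end in 8 of 8 libraries. Thbs2 was lower in 8 of 8 (−0.13), and Egr1 (−0.36) and Egr2 (−0.31) were higher at this end in only 1 and 2 libraries. Markers of bone and vessel walls went both ways. Osteocalcin (Bglap, median log2 ratio 4.25) and bone sialoprotein (Ibsp, 0.61) were higher there in 8 of 8 libraries. Pdgfrb (2.78) was too, while 4 other pericyte and smooth muscle genes had a median below 0. Of the other hypertrophy and mineral genes, Col10a1 (−1.55), Alpl (−0.17), Spp1 (−0.09) and Mef2c (−0.08) had a median below 0. Mgp (0.42), Runx2 (0.25) and Mmp13 (0.02) had one above 0. Their part in the pattern was not tested. Of the defining genes of the class outside the balance lists, Fmod (1.08) and Comp (0.46) were higher at the fibrous end in 8 of 8 libraries and Sox9 (−0.24) in 2.

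At the cartilage end differences were smaller. The BMP antagonist Grem1 was at 304 to 1098 CPM in the cartilage quartile and at 75 to 493 in the fibrous quartile (median log2 ratio −1.64). The protease inhibitor Mug1 (−1.67), the WNT antagonist Sfrp5 (−1.19), the glutathione peroxidase Gpx2 (−1.37), the cyclin Ccnd1 (−0.87), the water channel Aqp3 (−0.90), the retinoic acid hydroxylase Cyp26b1 (−0.77), the adhesion molecule Epcam (−0.83), Pglyrp1 (−0.95) and Wdr43 (−0.59) were lower at the fibrous end in every library. Of 8 nucleus pulposus and notochord genes, Cd24 (−0.47), Krt18 (−0.60) and Car12 (−0.67) were lower at the fibrous end in 8 of 8 libraries, Krt8, Car3, S100b and Foxa2 had a median below 0 but were higher there in 1 or 2 libraries, and Pdia4 (0.50) was higher in 7. The quartiles differed little in depth: the median was 4836 to 9881 UMIs at the cartilage end and 4941 to 9512 at the fibrous end.

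**Figure D3:**
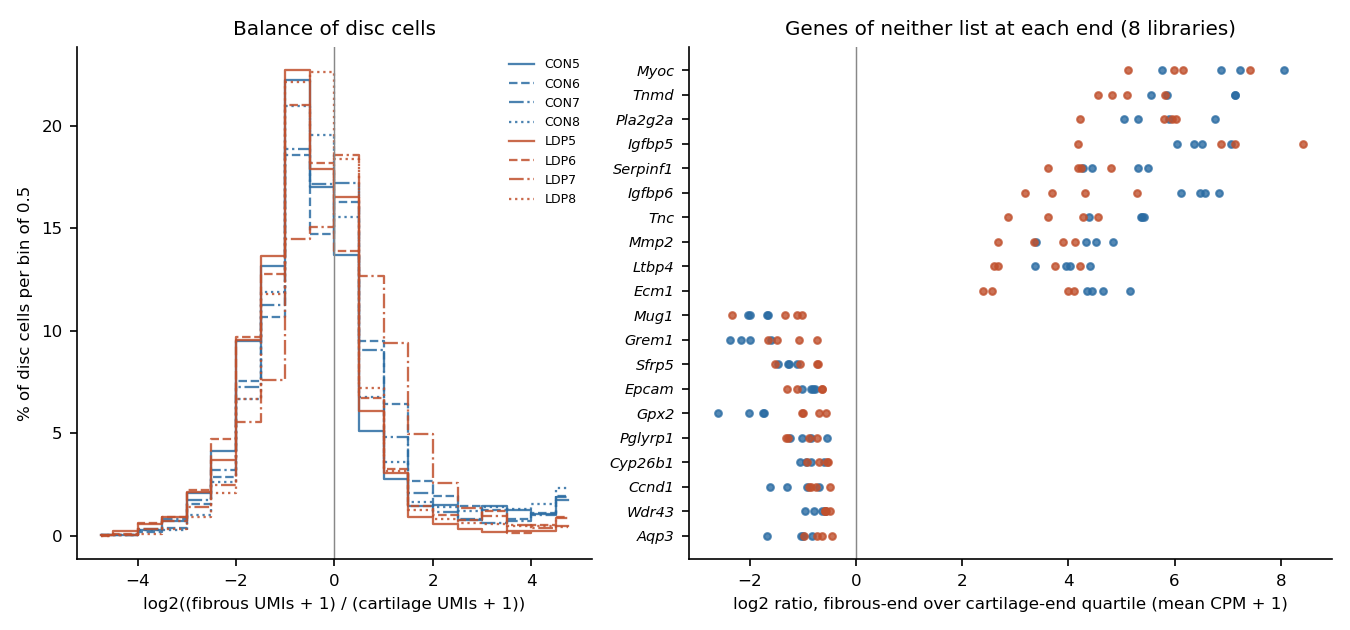
Left, distribution of the log2 balance of fibrous over cartilage UMIs in disc cells (percent of cells per bin of 0.5), with 1 line per library. Color marks CON or LDP, line style the rat, and the outermost bins also hold the cells beyond them. Right, log2 ratio of mean CPM + 1 between the fibrous and the cartilage quartile for the 10 leading genes of each end, 1 point per library, with ratios up to 8.42 (Igfbp5 in LDP rat 6) on the fibrous side and no lower than −2.60 (Gpx2 in CON rat 7) on the other.

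Cells with both collagens that name the programs were counted next. At 1000 UMIs, Col1a1 and Col2a1 were both found in 8.95%, 6.41%, 3.06% and 5.83% of CON and in 1.36%, 2.36%, 4.64% and 4.15% of LDP disc cells. The product of both genes' shares, the value expected if they were found independently, was 8.59%, 6.74%, 4.35% and 7.43% in CON and 0.97%, 2.61%, 4.65% and 3.66% in LDP. It lay above the 95% interval of the observed share (exact binomial, counting error only) in CON rats 7 and 8, below it in LDP rats 5 and 8, and within it in the other 4 libraries. Neither collagen had a UMI in 42.7% to 71.5% of cells at this depth.

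Deposited K-means columns, one for CON and another for LDP from a separate run, split nearly all disc cells between 2 clusters. A cluster number therefore need not mean the same cells in CON and in LDP. Cluster 1 took 40.9% to 75.9% of the disc cells of a library and was the deeper one (medians of 7768 to 10812 UMIs against 3805 to 6947). Tnmd, Lum, Igfbp5, Pla2g2a, Igfbp6, Col14a1 and Mmp2 were higher in cluster 2 in all 8 libraries, Tnmd by 1.89 to 4.14 on the log2 scale of mean CPM + 1. Inhba, Tnfrsf11b, Gpx2 and Rasl12 were higher in cluster 1. Depth and these genes moved together between the clusters, and the part of depth was not tested.

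The genes that varied most between libraries were ranked by their SD. Among genes at 20 CPM or more the median SD over the 8 libraries was 0.23 on the log2 scale. It was 3.42 for osteocalcin (Bglap), a bone product, which was at 60.0, 478, 48.1 and 0.45 CPM in CON and at 60.9, 373, 992 and 1.55 in LDP. CON and LDP libraries of rat 8 were both near 0. The hemoglobin gene Hba-a2 (SD 2.84) ran from 7.24 to 2781 CPM and Hbb (2.46) with it, and the hypertrophic collagenase Mmp13 (1.66) ran from 1.61 to 63.1. LOC100134871 (2.95), Apod (1.6), Gas1 (1.37), Sdf2l1 (1.36), Col18a1 (1.35) and RT1-A1 (1.33) completed the 10. The erythroid markers of the list took 0.00071% to 0.31% of UMIs in disc cells. LOC100134871, not in that list, ran from 8.52 to 4143 CPM and was highest and lowest in the same libraries as Hba-a2. Endothelial (0.0013% to 0.0022%), myeloid (0.0048% to 0.0105%) and lymphoid markers (0.00015% to 0.0030%) stayed far below the disc lists, with Cd14 the most abundant myeloid marker in every library.

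Whether puncture went with a shift of these programs was asked first by list, with the library as the unit. None of 15 lists passed an adjusted p of 0.05 (exact permutation test with Benjamini-Hochberg adjustment), and 2 had the smallest p that this design can give before adjustment, 0.0286. Over 15 lists that p passes after adjustment only if many lists reach it together, so the lack of a pass says little. In averages over a library, fewer cells of a kind and less RNA per cell cannot be told apart. Matrix proteases and their inhibitors took 0.57%, 0.53%, 0.59% and 0.53% of UMIs in CON and 0.41%, 0.45%, 0.43% and 0.41% in LDP. Every LDP library lay below every CON library (exact permutation p = 0.0286, adjusted p = 0.214). Outer annulus genes took 0.16%, 0.094%, 0.090% and 0.15% in CON and 0.045%, 0.085%, 0.039% and 0.071% in LDP, again without overlap and with the same p values. Nucleus pulposus and notochord genes took 0.097% to 0.12% in CON and 0.12% to 0.13% in LDP, higher in LDP in 4 of 4 rats (exact permutation p = 0.0571, adjusted p = 0.286). Cartilage matrix (2.02% ± 0.23 against 1.89% ± 0.24, SD, n = 4) and fibrous matrix (2.03% ± 0.12 against 1.77% ± 0.39) differed by less than the spread between libraries (exact permutation p = 0.486 and 0.286). Without rat 5 these differences were 0.02002 and −0.078 points.

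**Figure D4:**
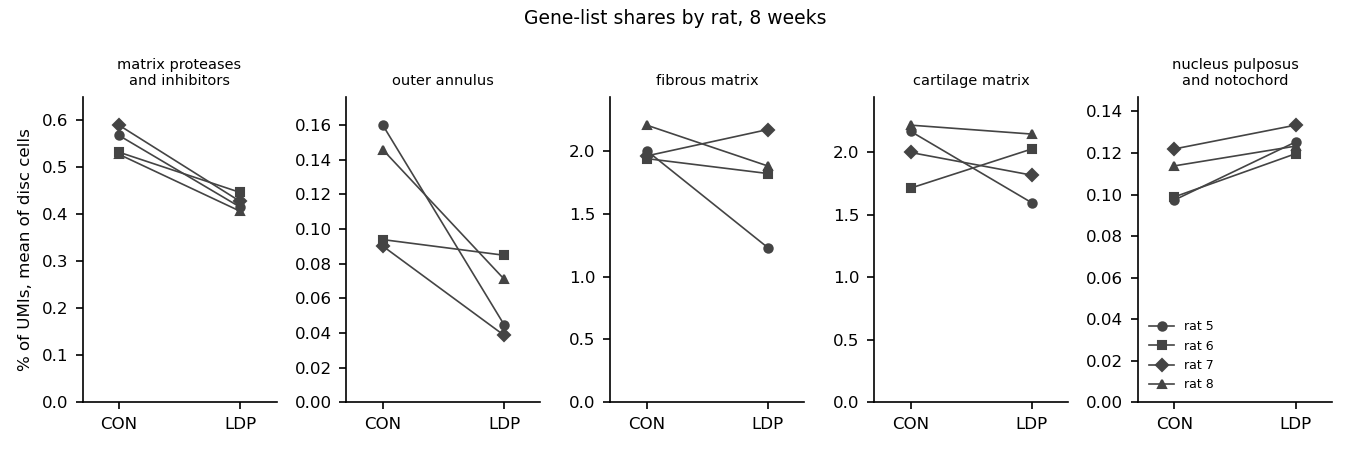
Mean share of UMIs (percent) on 5 gene lists in disc cells of the CON and the LDP library of each rat, joined by a line per rat. Shares of matrix proteases and inhibitors and of outer annulus genes were lower in LDP in each of the 4 rats without overlap of the groups, while the lines of cartilage and fibrous matrix cross.

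Matrix proteases and inhibitors were also read at both ends of the class. The quartiles, cut within each library, need not hold like cells in CON and LDP. In the cartilage quartile the list took 0.43% to 0.51% in CON and 0.35% to 0.36% in LDP, and in the fibrous quartile 0.550% to 0.657% in CON and 0.461% to 0.547% in LDP. At the fibrous end the groups nearly met. The most abundant member was Htra1, a serine protease of cartilage matrix, at 2575, 2564, 3101 and 2434 CPM in CON and 2150, 1997, 1780 and 1705 in LDP. In the test across all genes, described next, 0 of 13 measured members passed with limma or edgeR, 8 were lower in LDP at an unadjusted p under 0.05 (15.1% of all genes were), and DESeq2 called 6 of the 13 lower (2.93% of all genes). The aggrecanase Adamts5 was nearest, at 4.74, 6.86, 7.05 and 4.66 CPM in CON and 3.14, 2.22, 3.27 and 2.08 in LDP (limma, log2 change −0.89 ± 0.17 SE, adjusted p = 0.0665). Adamts4 (−2.34, adjusted p = 0.0937), Adamts1 (−1.40, 0.0984), Mmp2 (−1.29, 0.1000), Ctsk (−0.82, 0.0980) and the inhibitor Timp2 (−0.53, 0.119) pointed the same way. For 7 of 13 measured members all LDP libraries lay below all CON libraries (10.7% of all genes), and for 0 above (3.13%).

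Gene by gene, 35 of 7890 genes differed between LDP and CON disc cells at an adjusted p under 0.05 (limma on log2(mean CPM + 1) with a block for rat). Of these 18 were higher in LDP (0.228%) and 17 lower (0.215%). All LDP libraries lay above all CON libraries for 247 genes (3.13%) and below for 845 (10.7%). The median log2 change of all genes was −0.13, and after centring each library on its median 22 genes were higher and 10 lower, so that 68.8% instead of 51.4% of called genes were higher. Without the block 9 were higher and 24 lower. The counts rested on all 4 rats: they were 3 and 1 without rat 5, 1 and 2 without rat 6, 1 and 0 without rat 7, and 7 and 2 without rat 8. By another tool on the same recovered counts they were 16 and 8 (edgeR quasi-likelihood) or 205 and 231 (DESeq2). Of the 35 genes edgeR called 12 of the 18 higher and 8 of the 17 lower again, and DESeq2 called all 35.

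Among the 18 genes higher in LDP the homeobox gene Hoxd10, which marks posterior segments of the body axis, was at 1.00, 0.60, 0.75 and 0.60 CPM in CON and at 12.6, 10.2, 7.95 and 12.9 in LDP (log2 change 2.76 ± 0.24 SE, limma adjusted p = 0.00385). It had a UMI in 0.23% to 0.39% of CON and 3.43% to 6.57% of LDP disc cells. The groups did not overlap, and the change passed without each rat in turn (limma adjusted p from 0.0260 to 0.0387). The log2 change was 1.46 with a pseudocount of 5 CPM and 4.16 in edgeR, as a change from so low a level depends on the value added to it. Grem1, a cartilage-end gene, was at 208, 325, 477 and 273 CPM in CON and at 670, 620, 708 and 786 in LDP (1.18 ± 0.21, adjusted p = 0.0492), every LDP library above every CON library. Scrg1, introduced above, rose by 0.92 ± 0.16 (adjusted p = 0.0472). The carbonic anhydrase Car12, a nucleus pulposus list gene, was at 1.92 to 4.11 CPM in CON and 5.78 to 12.2 in LDP (1.20, adjusted p = 0.0217).

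The others named by size were the muscle-type cytochrome oxidase subunit Cox6a2 (1.67), LOC691995 (1.5), cytidine deaminase Cda (1.48), the lipoprotein-associated phospholipase Pla2g7 (1.31), the epithelial secreted proteins Dmkn (1.23) and Sbsn (1.1) and the calcium-binding protein S100a3 (1.13). Their limma adjusted p ran from 0.0166 to 0.0460. All were higher in LDP in 4 of 4 rats, which the rule for naming them required. Of the defining genes of the class, Acan (0.23), Sox9 (−0.19), Fmod (−0.20), Comp (−0.20) and Col2a1 (−0.73) did not pass, with limma adjusted p between 0.273 and 0.458. Without rat 5 the change of Col2a1 was −0.21, and that of Cox6a2 was 1.32 and no longer passed (limma adjusted p = 0.111).

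Of the 17 genes lower in LDP, Gas1, a membrane co-receptor of hedgehog signaling, was at 24.8, 32.3, 45.9 and 37.9 CPM in CON and at 1.62, 10.0, 9.69 and 13.5 in LDP (log2 change −2.11 ± 0.37 SE, limma adjusted p = 0.0472). Fndc1 was at 11.4, 12.5, 10.6 and 16 CPM in CON and 1.14, 3.53, 1.80 and 2.77 in LDP (−2.09 ± 0.26, adjusted p = 0.0166). In both genes LDP rat 5 was the lowest and no LDP library reached a CON library. The collagen chains Col5a3 (−1.82) and Col4a1 (−1.52), the extracellular matrix proteins Ecm1 (−1.63) and Sparcl1 (−1.58), netrin 1 (Ntn1, −1.48), the serine protease Htra4 (−1.46), the lipid phosphatase Plpp3 (−1.44) and Ltbp4 (−1.40) completed the 10, with limma adjusted p from 0.0237 to 0.0380. Lower values in 4 of 4 rats were a condition for naming these 10. Col4a1, a basement membrane collagen, fell from 102 to 120 CPM in CON to 29.5 to 47.3 in LDP.

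Of the 17 genes lower in LDP, 15 were higher at the fibrous end of the class in 8 of 8 libraries, compared with 966 of 7866 tested genes of neither matrix list (12.3%). The exceptions, named after their values were seen, were Hoxc8 and the actin-severing protein Gsn (−0.80, limma adjusted p = 0.0178). Within the fibrous quartile the 17 genes had a median change of −1.69 and within the cartilage quartile of −0.75, and all 17 kept their direction in both. For genes near 0 at the cartilage end, the added 1 CPM shrinks a log2 change. Fndc1 was at 0.30 to 1.85 CPM there in CON and at most 0.32 in LDP. Quartiles were cut within each library, so the fibrous quartile need not hold like cells in CON and LDP. Its share of outer annulus genes outside the matrix lists was 0.25% to 0.48% in CON and 0.075% to 0.27% in LDP. A change in make-up and a change within like cells cannot be told apart there. The sizes of the changes at both ends are therefore not comparable. In the fibrous quartile 17 were lower in 4 of 4 rats, and in the cartilage quartile 11 were. The 18 genes higher in LDP had medians of 1.46 and 0.99, were higher in 4 of 4 rats in both quartiles, and 8 of them were lower at the fibrous end in all libraries, as were 1340 of the 7866 genes (17%). As the genes had been chosen on the same cells, their direction within quartiles is a description.

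**Figure D5:**
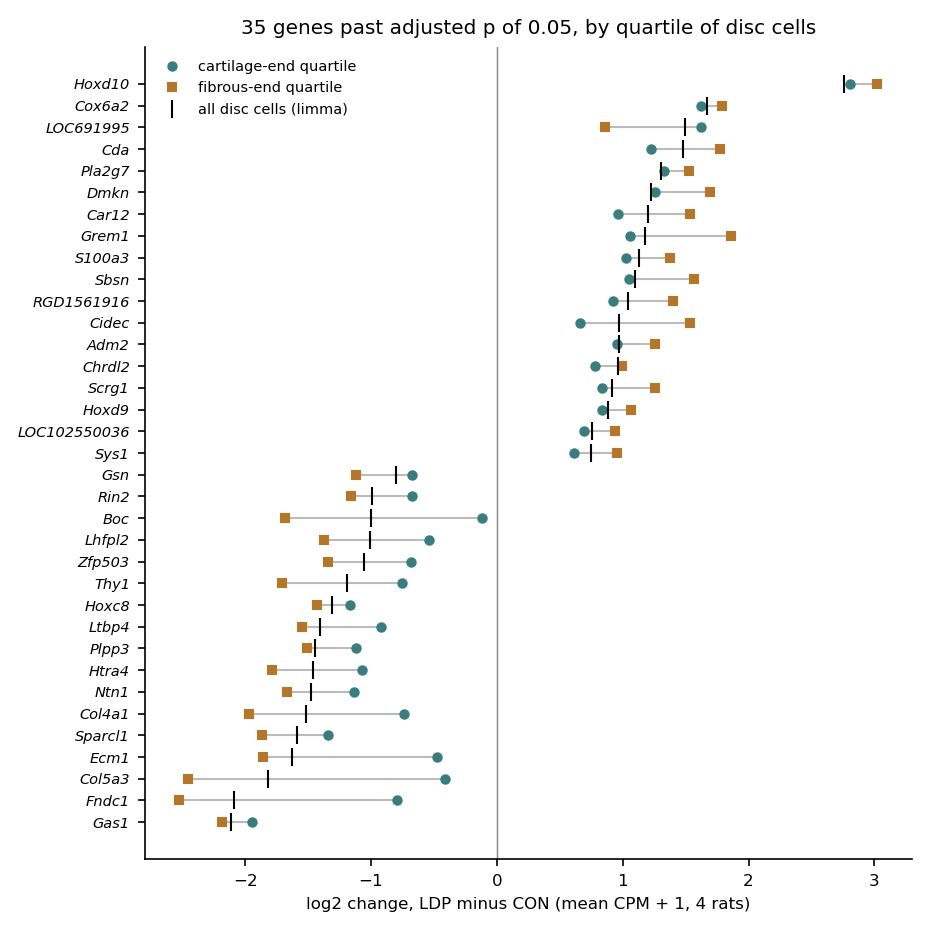
Log2 change from CON to LDP of the 35 genes past an adjusted p of 0.05, in all disc cells (black ticks, limma) and within the cartilage-end (circles) and fibrous-end quartile (squares), as means over 4 rats. Squares lie farther from 0 than circles for all 17 genes lower in LDP and for 17 of the 18 higher, LOC691995 being the exception. Quartiles were cut within each library and need not hold like cells in CON and LDP.

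Lists of fibrous and outer annulus genes held 0 called genes with limma or edgeR, and most of their members had negative changes (11 of 12 and 5 of 5, beside 68.6% of all genes). The median change was −0.69 over 12 fibrous matrix genes and −1.27 over 5 outer annulus genes, beside −0.13 over all genes, and all LDP libraries lay below all CON libraries for 4 and 3 of them (10.7% of all genes). At an unadjusted p under 0.05 limma had 6 and 4 members lower (15.1% of all genes), and DESeq2 called 3 and 4 lower (2.93%) and 1 fibrous gene higher (2.6%). Lumican (Lum), a proteoglycan of collagen fibrils, was at 145, 102, 128 and 148 CPM in CON and 24.5, 49.3, 61.3 and 49.9 in LDP (−1.54, limma adjusted p = 0.0979). Periostin (Postn), a matricellular protein of fibrous tissues, was at 21.5, 7.39, 22.9 and 13.2 CPM in CON and 0.53, 0.81, 1.76 and 0.56 in LDP (−3.10, adjusted p = 0.103). Neither gene passed, although the groups did not overlap. Cartilage matrix genes had a median of −0.17, with 5 of 12 above 0 (31.4% of all genes), and the anti-angiogenic chondromodulin Cnmd was the largest of them to point up (0.60, adjusted p = 0.107). With limma or edgeR 0 cartilage matrix genes were called. At an unadjusted p under 0.05 limma had 2 of them higher (4.32% of all genes) and 0 lower. DESeq2 called 1 higher (2.6%) and 0 lower, and for 1 gene all LDP libraries lay above all CON libraries (3.13%). Of 7 nucleus pulposus and notochord genes 1 was called higher (Car12, beside 0.228% of all genes) and 3 had all LDP libraries above CON (3.13% of all genes), among them Cd24 at 322 to 383 CPM in CON and 452 to 477 in LDP (0.44, adjusted p = 0.123).

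Markers of vessel walls went both ways, and 0 of 7 pericyte and smooth muscle genes and 0 of 4 endothelial genes passed with limma or edgeR. At an unadjusted p under 0.05 limma had 3 and 1 lower and 1 pericyte gene higher (15.1% and 4.32% of all genes), and DESeq2 called 3 and 1 lower (2.93%) and 1 pericyte gene higher (2.6%). Rgs5, a pericyte gene, was at 10.0, 6.38, 12.2 and 5.62 CPM in CON and at 0.054, 0.25, 2.38 and 0.057 in LDP disc cells (−2.64, limma adjusted p = 0.0645). Of 7 pericyte and smooth muscle genes measured 3 had all LDP below all CON libraries (10.7% of all genes), Pdgfrb (−0.82, adjusted p = 0.0829) among them, while Des (0.61, adjusted p = 0.130, higher in 4 of 4 rats) and Acta2 (0.71, adjusted p = 0.345) pointed up. The list as a whole took 0.014% to 0.017% of UMIs in CON and 0.012% to 0.014% in LDP. Of 4 endothelial genes 2 lay below, again beside 10.7% of all genes (Cdh5 at 0.63 to 2.81 CPM in CON and 0.082 to 0.59 in LDP, and Plvap at 0.73 to 4.06 against 0.00 to 0.35), and the list took 0.0016% to 0.0022% in CON and 0.0013% to 0.0020% in LDP. With cells limited to the 89.6% to 97.4% that held no UMI of 10 defining genes of endothelial, mural, myeloid and lymphoid cells, a setting added after the values were seen, 13 of the 18 and 14 of the 17 genes were called again and no other. With cells that held no UMI of any endothelial, myeloid or lymphoid list gene, all 18 and all 17 were called again among 22 higher and 54 lower. The remaining part of such cells in the result was not tested.

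Of 6 Hox genes measured 2 were called higher (Hoxd10 and Hoxd9, beside 0.228% of all genes) and 1 lower (Hoxc8, beside 0.215%). Hoxd9 was at 16.2, 13.6, 13.8 and 12.8 CPM in CON and at 29.4, 29.6, 20.9 and 28.3 in LDP (0.89, limma adjusted p = 0.0237), whereas Hoxc8, of a more anterior group, was at 41.6, 51.2, 39.8 and 35 CPM in CON and at 14.9, 18.8, 14.3 and 17.0 in LDP (−1.31, adjusted p = 0.0104). Hoxc9 (−0.48, adjusted p = 0.138), Hoxb7 (−0.21, 0.508) and Hoxc10 (−0.17, 0.577) did not pass. All but Hoxd10 were named after their values were seen. Groups did not overlap for Hoxd10 and Hoxd9 (higher, 3.13% of all genes) or Hoxc8 and Hoxc9 (lower, 10.7%) and overlapped for Hoxb7 and Hoxc10, and the punctured discs were always the lower lumbar ones.

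The 8-week changes were set beside those at 2 weeks through the difference of both LDP effects. No gene passed an adjusted p of 0.05 for that difference (limma, 84 of 7890 genes at an unadjusted p under 0.05; not run with another tool). Of the 35 genes called at 8 weeks 8 also passed at 2 weeks, when 0.203% of all genes did, and 27 did not. Those that passed were Hoxd10 (2.17, limma adjusted p = 0.0276), Gsn (−0.86, 0.0276), Hoxc8 (−0.94, 0.0392), Hoxd9 (0.85, 0.0392), Car12 (1.13, 0.0392), Cidec (1.00, 0.0392), LOC102550036 (0.87, 0.0392) and Pla2g7 (1.5, 0.0392). Among those that did not, all with the same sign at both times, were Fndc1 (−0.88, 0.275), Col4a1 (−0.51, 0.436) and Ecm1 (−0.57, 0.440). Calls at both times shared 1 estimate of the spread of each gene and are therefore not independent.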

How the data were processed

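The 8-week libraries were 4 CON and 4 LDP libraries of rats 5 to 8. Per the labels and the study's methods, the authors processed the reads in Partek with the genome build rn6 (as listed in the submitters' processing notes), filtered cells by mitochondrial share, genes and UMIs, clustered each group by K-means and named classes by markers. The aligner and any removal of doublets or free RNA are not given in the sources used here, and no doublet caller was run. At 8 weeks the files hold 27064 CON cells, the number that the study states, and 28283 LDP cells, 10 fewer than it states. Per cell, the gene values that the authors deposited are CPM on a log2 scale after adding 1. The deposited total of a cell is an expected count and not whole in most cells. The deposited mitochondrial and ribosomal shares are percent of a cell's counts.

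Counts were recovered from log2 values and totals (whole within 0.02 for 99.4% to 99.5% of values above 0 in each library), rounded, and summed or averaged per library over disc cells. Genes listed for all groups with a mean of at least 5 CPM (7890) were fitted by limma 3.58.1 on log2(mean CPM + 1) with rat as a block, the 16 libraries of both times sharing 1 estimate of the spread, with edgeR 4.0.16 and DESeq2 1.42.0 on summed counts as alternatives. In the tested simulation of this comparison, 200 of 7890 genes were changed and limma called 91% of 2-fold changes, edgeR 90% and DESeq2 91%, with 14, 11 and 22 unchanged genes called. The simulated libraries held no differences between rats or times and no shift shared by all genes. These rates therefore need not hold for the data. For list shares and shares of cells, each cell was thinned to 1000 UMIs, leaving out 2 to 63 shallower disc cells per library, and library means were compared by exact permutation. The 95% Clopper-Pearson intervals of such shares reached at most 2.48 points to a side and cover counting error only. CON and LDP libraries of a number come from 1 rat, which is what pairs them. Their deviations from the group means correlated by 0.158, 0.531, 0.0701 and 0.394 over genes.

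Named genes were list members, up to 10 per direction with the largest called change in 4 of 4 rats, the 20 leading genes against other classes (50 CPM), 10 per end of the balance and the 10 most variable between libraries (20 CPM), and the 10 most abundant. Cells, lists and rules were chosen with earlier results of these data known. Alternatives covered block, libraries, pseudocount, filter, scaling, tool, cells, depth, lists and each rat left out. A planned comparison of the share of cells with a UMI of single genes is not reported here.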

Additional observations from a re-analysis of the deposited data

Results flagged for a closer look

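Of 168 sets of 4 libraries examined, 10 (5.95%) held a library that stood apart from the other 3 by Dixon's gap test, close to the 1 in 20 that chance gives. LDP rat 5 was highest for Cox6a2 (32.9 CPM, the others 11.3 to 13.4) and lowest for Timp2 (466 CPM, the others 775 to 837). LDP rat 7 was highest for Rgs5 (2.38 CPM, the others at most 0.25) and lowest for Hoxd9 (20.9 CPM, the others 28.3 to 29.6). CON rat 8 was highest for Ntn1 (20.7 CPM, the others 9.01 to 10.0) and Fmod (2146 CPM, the others 1393 to 1405) and lowest for Pla2g7 (7.55 CPM, the others 9.32 to 9.38). CON rat 6 was highest for Bglap (478 CPM, the others at most 60.0). CON rat 7 was highest for Hoxc9 (28.2 CPM, the others 25.6 to 25.7) and for the hypertrophy and mineral list (1.5% of UMIs, the others 1.17% to 1.19%). The library apart did not reach the other group for, among others, Cox6a2, Hoxc9, Hoxd9, Ntn1, Pla2g7, Rgs5 and Timp2.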

How the results depend on the processing

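Counts of called genes moved most. Against 18 genes higher and 17 lower in LDP, the fit with no replicate block gave 9 and 24, the 8-week libraries alone 16 and 43 with the block and 12 and 38 without it, a filter at 20 CPM 4 and 8, median-centred values 22 and 10, cells with no UMI of an endothelial, myeloid or lymphoid list gene 22 and 54, edgeR 16 and 8 and DESeq2 205 and 231. Leaving out 1 rat gave 1 to 7 higher and 0 to 2 lower, with 591 to 1358 lower at an unadjusted p under 0.05 in limma. The 20 genes that led the disc class against others shared 9 with the ranking of thinned cells and 12 to 20 with a rat left out (12 without rat 7 and 12 without rat 8). No list passed the adjusted threshold at another depth, with medians over cells or without its most abundant gene. This says little of stability, as a few lists without overlap could not have passed. Paired sign flips (smallest p 0.125) and 3 against 3 libraries (0.1) could not pass that threshold at all and say nothing of stability.

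Some small differences changed sign, each within the spread between libraries. The share of fibrous over cartilage cells was 1.84 points higher in LDP without rat 6 (range −6.63 to 1.84 with each rat left out). The disc share was 1.00 points higher in LDP among disc and lymphoid cells. With each rat left out its difference kept its sign but ran from −7.00 points (without rat 5) to −0.60 (without rat 6). With each rat left out the difference ran from −0.274 to 0.02002 points for cartilage matrix, from −0.114 to 0.0158 for immediate early genes, from −0.00322 to 0.00094 for cell cycle genes (all 3 above 0 without rat 5) and from −0.0103 (without rat 8) to 0.0352 for tendon and ligament, which was −0.0144 without its most abundant gene. For Cyp26b1 the smallest log2 ratio, with cells divided at the median balance, was 0.0144. The replicate block by paired sign flips could not pass for any share, as its smallest p is 0.125. The cause of these shifts was not tested. A median over cells gave no value for lists whose median is 0 in every library. The 1313 disc cells of LDP rat 6 make its shares the least precise.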

Other observations

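In other programs of disc cells the groups overlapped. Genes of the secretory pathway and unfolded protein response took 0.89%, 0.83%, 1.13% and 0.95% of UMIs in CON and 0.88%, 0.66%, 0.77% and 0.84% in LDP, lower in LDP in 4 of 4 rats (exact permutation p = 0.114, adjusted p = 0.343 over 15 lists). The surface program (1.31% to 1.94% against 1.08% to 1.63%) and the hypertrophy and mineral list (1.17% to 1.5% against 0.96% to 1.26%) were also lower in 4 of 4 rats, with exact permutation p of 0.257 and 0.200. Immediate early genes, which respond within minutes to stress and handling, were at 0.43%, 0.40%, 0.27% and 0.34% in CON and 0.17%, 0.26%, 0.39% and 0.40% in LDP. Hypoxia and glycolysis genes took 0.57% to 0.58% in CON and 0.54% to 0.66% in LDP, and 10 of the 15 had a log2 change above 0 (31.4% of all genes), with a median of 0.09. Cell cycle genes had a UMI in 16.3% to 24.9% of CON and 16.8% to 23.2% of LDP disc cells at 1000 UMIs, most of them from Pcna.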
